A study of Mus musculus with 6 samples.

Results

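The Sox and forkhead transcription factor genes were described by the open chromatin called at and around them in spermatogonia of mice with and without SIRT7. The members were the protein-coding genes whose symbol is Sox and a number or Fox, a letter and a number, with Sox2, Sox9 and Foxo1 left out. Of 63 symbols that match, 60 remained, 17 Sox and 43 forkhead genes, among 21440 protein-coding genes whose 5′ end is known. Chromatin was assayed by ATAC-seq, which uses the Tn5 transposase to cut and tag accessible DNA, and the files list the regions (peaks) where the tags pile up above the background of each library. Cells came from testes of 129S1/Sv mice at postnatal day (Pnd) 5 and were enriched for spermatogonia by plating out the somatic cells. The 3 S7KO libraries came from whole-body Sirt7 knockout mice (Sirt7-/-) and the 3 WT libraries from wild-type mice. Replicates are numbered 1, 2 and 4 in each genotype by the sample titles, whereas the sample descriptions name libraries 2, 3 and 4. The title numbers are used here. No agent or other allele is named for either group. The study describes its ATAC-seq libraries as independent biological replicates. How many animals went into each is not given in the labels, and p-values below measure the spread between these libraries.

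Sox proteins bind and bend DNA through an HMG box, the domain first described in the sex-determining factor SRY, and forkhead proteins bind through a winged-helix domain. Both families specify lineages in many embryonic tissues, and their genes often have long CpG-rich promoters. In the testis, Sox and forkhead factors act in Sertoli cells, in spermatogonial stem cells and in later germ cells. A peak marks accessible DNA and is not a measure of transcription. In samples of many cells, fewer cells with an open site and a weaker opening in each cell cannot be told apart.

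Depth in reads is unknown, since the files hold peaks only. Each library listed 105728 to 133663 peaks on the chromosomes used. WT replicate 2 had the fewest peaks and covered 81.5 Mb, against 100.1 to 107.7 Mb in the others, and it stands apart in many of the values below. The Sirt7 promoter had a peak in all 6 libraries, so that peak gives no check of the genotype labels. Single peaks inside the gene were not compared. Promoter peaks in all 6 libraries were present at 11 of 12 spermatogonial marker genes and also at 8 of 8 Sertoli, 5 of 5 peritubular myoid, 3 of 4 endothelial, 3 of 6 Leydig and 1 of 4 macrophage marker genes. The peaks therefore do not separate spermatogonia from the somatic cells that plating is meant to remove, and the part of other cells in the values below was not tested.

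A promoter peak was called at nearly every member in every library. In each of the 6 libraries, 57 of the 60 members had a peak within 1 kb of the 5′ end, and they were the same 57 genes (95%), against 68.2% of all protein-coding genes with such a peak in all 6. Within 3 kb the members' count was again 57, against 74.0% of all genes. All 17 Sox genes and 40 of 43 forkhead genes were among them. No member had a promoter peak in some libraries and not in others. The 3 remaining members, Foxn1, Foxp3 and Foxr2, had no peak within 1 kb or 3 kb in any library, a state shared by 27.7% of all genes at 1 kb and 21.8% at 3 kb. For comparison, 31 of 39 Hox genes and 74 of 76 cytoplasmic ribosomal protein genes had a peak within 1 kb in all 6 libraries.

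Promoter sequences are shown for 8 members whose 5′ end had no peak, a narrow peak or a wide peak. Each gives the 250 bases before a RefSeq transcription start on GRCm38.p6 (mm10), written 5′ to 3′ on the gene's strand, with CpG dinucleotides in capitals. Foxn1, Foxp3 and Foxr2 had no promoter peak, Foxi1 and Foxr1 had the narrowest, Sox12 was among the widest, and Foxl2 and Foxo3 are genes of the somatic gonad and the germ line with wide peaks.
Foxn1, chr11:78386609-78386858, minus strand: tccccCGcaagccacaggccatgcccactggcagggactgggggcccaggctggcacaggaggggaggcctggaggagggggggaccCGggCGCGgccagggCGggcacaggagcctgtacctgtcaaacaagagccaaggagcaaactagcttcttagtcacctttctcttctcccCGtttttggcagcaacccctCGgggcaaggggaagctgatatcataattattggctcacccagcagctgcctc
Foxp3, chrX:7579426-7579675, plus strand: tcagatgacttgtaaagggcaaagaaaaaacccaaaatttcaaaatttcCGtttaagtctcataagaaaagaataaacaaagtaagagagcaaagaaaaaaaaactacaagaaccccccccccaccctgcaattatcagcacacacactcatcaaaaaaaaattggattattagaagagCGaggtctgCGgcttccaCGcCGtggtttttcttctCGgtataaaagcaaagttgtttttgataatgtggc
Foxr2, chrX:153118538-153118787, plus strand: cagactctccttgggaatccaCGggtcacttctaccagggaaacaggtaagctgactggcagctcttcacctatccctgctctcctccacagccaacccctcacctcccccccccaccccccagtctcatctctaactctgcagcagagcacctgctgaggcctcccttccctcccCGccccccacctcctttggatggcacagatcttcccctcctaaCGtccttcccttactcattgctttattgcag
Foxi1, chr11:34208090-34208339, minus strand: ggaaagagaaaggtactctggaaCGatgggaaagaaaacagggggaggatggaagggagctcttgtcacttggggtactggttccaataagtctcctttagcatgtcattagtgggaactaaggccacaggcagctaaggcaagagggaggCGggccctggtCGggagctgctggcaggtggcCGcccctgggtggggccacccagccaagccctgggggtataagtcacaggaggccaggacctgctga
Foxr1, chr9:44440869-44441118, minus strand: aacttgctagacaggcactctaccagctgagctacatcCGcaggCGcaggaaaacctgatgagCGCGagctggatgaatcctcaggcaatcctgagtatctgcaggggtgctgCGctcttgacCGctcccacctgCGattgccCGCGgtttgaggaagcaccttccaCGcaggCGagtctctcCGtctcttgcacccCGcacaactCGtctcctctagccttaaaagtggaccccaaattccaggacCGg
Sox12, chr2:152398047-152398296, minus strand: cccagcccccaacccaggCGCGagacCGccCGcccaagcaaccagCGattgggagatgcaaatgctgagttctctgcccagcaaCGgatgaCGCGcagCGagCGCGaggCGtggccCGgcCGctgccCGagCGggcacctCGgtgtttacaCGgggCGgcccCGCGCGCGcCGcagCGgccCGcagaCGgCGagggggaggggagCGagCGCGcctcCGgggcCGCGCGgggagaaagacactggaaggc
Foxl2, chr9:98955357-98955606, plus strand: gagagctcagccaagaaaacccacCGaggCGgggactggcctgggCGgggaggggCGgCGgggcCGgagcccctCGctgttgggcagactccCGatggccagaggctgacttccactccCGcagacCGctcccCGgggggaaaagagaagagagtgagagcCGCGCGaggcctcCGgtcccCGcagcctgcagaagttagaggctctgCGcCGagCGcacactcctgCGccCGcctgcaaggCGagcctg
Foxo3, chr10:42276696-42276945, minus strand: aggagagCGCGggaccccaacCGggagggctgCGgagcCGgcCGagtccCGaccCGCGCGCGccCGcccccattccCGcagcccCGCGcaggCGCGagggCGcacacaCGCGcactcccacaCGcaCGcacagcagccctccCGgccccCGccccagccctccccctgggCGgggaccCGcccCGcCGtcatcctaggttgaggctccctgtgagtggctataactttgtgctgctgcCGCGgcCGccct
The start shown for Foxr2 lies 4207 bp into the gene and had a peak within 1 kb in 2 libraries. That of Foxn1 lies 175 bp from the 5′ end used here. The other 6 starts are at the 5′ end itself. The printed 250 bases hold 7 CpGs for Foxn1, 6 for Foxp3, 3 for Foxr2 and 4 for Foxi1, against 15 for Foxr1, 22 for Foxl2, 31 for Foxo3 and 35 for Sox12. Foxi1 and Foxn1 show that few CpGs went with a peak in all 6 libraries in the former and with no peak in the latter.

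A promoter sequence of 300 bases (250 before and 50 after a start) was at hand for 39 of the 60 members, taking the start nearest to the 5′ end of each gene. These members had a median of 22 CpGs, against 13 over all 17492 genes with a sequence, and 31 of 39 (79.5%) had 10 or more, against 57.2% of all genes. Of the 31 with 10 or more CpGs, all had a peak within 1 kb of that start in all 6 libraries. The share over all genes was 95.9% at 10 to 19 CpGs and 98.2% at 20 or more. Of 6 members with 5 to 9 CpGs, 3 (50%) had such a peak, namely Foxi1, Foxi2 and Sox15, against 64.1% of all genes in that class. Neither of the 2 with fewer than 5, Foxr2 and Sox5, had it, and the share over all genes in that class was 15.0%. For Sox5 and Foxn3 the start with a sequence is an internal one, 835181 bp and 113593 bp from the 5′ end, so it does not speak for the promoter peak that each gene has. The sequences of 21 members were not analysed here.

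**Figure D1:**
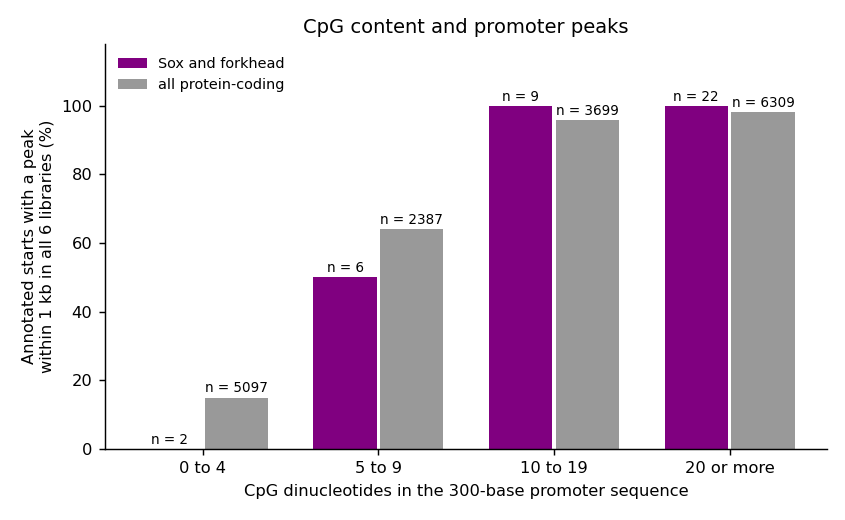
Share of annotated starts with a peak within 1 kb in all 6 libraries (vertical axis, percent), by the number of CpG dinucleotides in the 300-base promoter sequence (horizontal axis), for Sox and forkhead genes (purple) and all protein-coding genes (grey), with the number of starts above each bar. All 31 member starts with 10 or more CpGs had a peak in all 6 libraries, and neither of the 2 with fewer than 5 did.

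Short core motifs of the families' own binding sites were searched in the 300-base sequences on both strands. The forkhead core GTAAACA occurred in 2 of 39 members (5.13%), Foxa1 and Sox12, against 2.93% of all genes. The Sox cores ACAAAG and ACAATG occurred in 20.5% and 5.13% of members, against 16.8% and 11.2% of all genes. GGGCGG, the GC box, occurred in 66.7% of members, against 46.3% of all genes. No motif contains another, ACAAAG and ACAATG share their first 4 letters, GGGCGG holds a CpG, and a match describes letters in a window only.

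Member promoter peaks were broad. The width of the widest peak that touches the 1 kb window, averaged over 6 libraries, had a median of 1991 bp over the 57 members (interquartile range 1729 to 2362 bp). The median over the 14613 protein-coding genes with a peak in all 6 libraries was 1431 bp (1139 to 1832 bp), that over Hox genes 2021 bp and that over ribosomal protein genes 1218 bp. Of the 57, 28 (49.1%) averaged 2000 bp or more, against 18.3% of all genes. The Sox genes had a median of 2158 bp and the forkhead genes 1987 bp. As a set, the members' promoter peaks were also weaker than those of all genes by rank and by fold enrichment. Each of these is a value for the whole broad peak, not for its summit, and how far a greater width lowers it was not tested. A relation between width and strength over single members was not tested. Ranked by score within each library, from the strongest at 0% to the weakest at 100%, the promoter peaks of members had a median rank of 23.1%, against 7.88% over all genes, 44.0% for Hox genes and 3.25% for ribosomal protein genes. Their median fold enrichment over background was 3.29, against 4.88 over all genes. When only peaks with a −log10 q of 3 or more were kept, 48 members still had a promoter peak in all 6 libraries, and 9 lost it in at least 1. These were Foxa1, Foxa2, Foxb1, Foxb2, Foxd3, Foxf2, Sox1, Sox10 and Sox14, and 50 members kept a peak in WT replicate 2, against 55 to 57 in the other libraries.

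**Figure D2:**
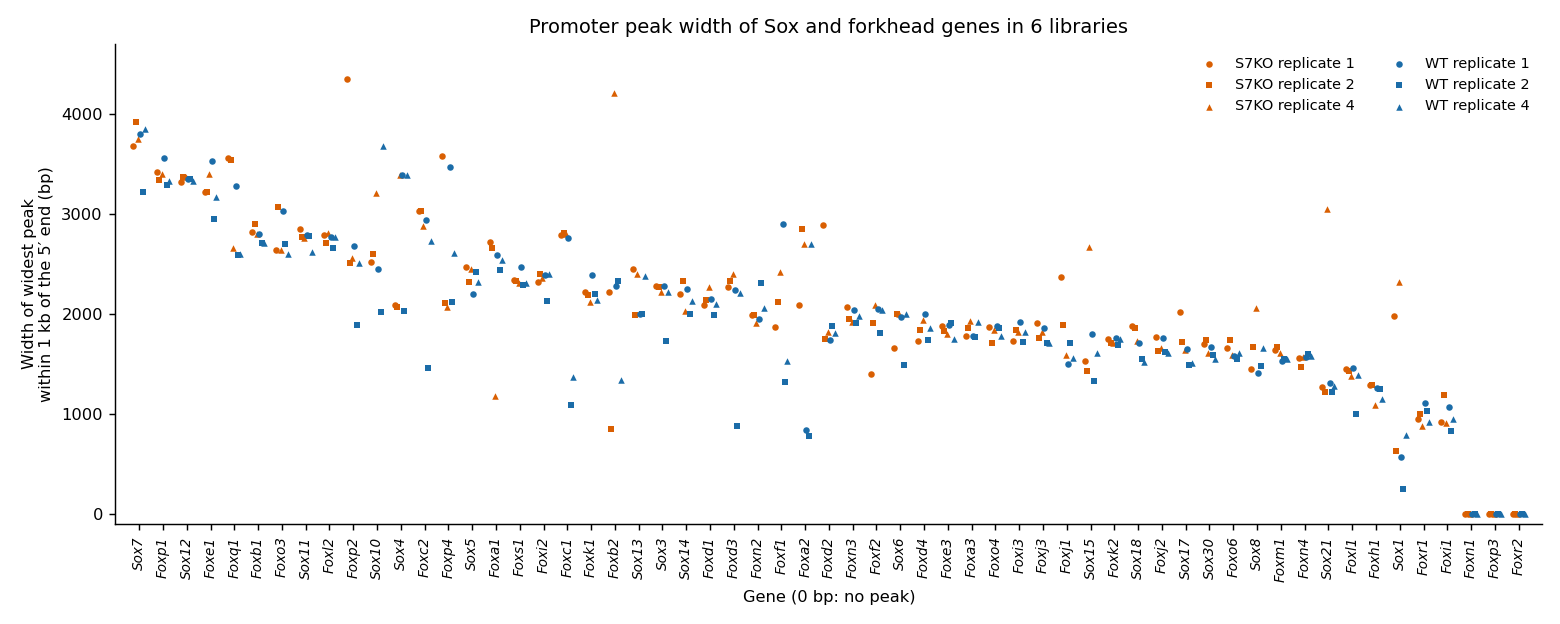
Width of the widest peak within 1 kb of the 5′ end (vertical axis, bp) for 59 of the 60 Sox and forkhead genes (horizontal axis, ordered by the mean), with 1 point per library, S7KO in orange and WT in blue, and replicates 1, 2 and 4 as circles, squares and triangles. Widths fall from a mean of 3701 bp at Sox7 to 976 bp at Foxi1, and Foxn1, Foxp3 and Foxr2 lie at 0.

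By the mean of 6 libraries, the widest promoter peak belonged to Sox7, a factor of endothelial and endoderm differentiation, at 3680, 3918 and 3747 bp in S7KO replicates 1, 2 and 4 and 3798, 3218 and 3847 bp in WT replicates 1, 2 and 4. In single libraries Foxp2 (4352 bp in S7KO replicate 1) and Foxb2 (4213 bp in S7KO replicate 4) were wider. WT replicate 2 was the narrowest for Sox7, and the S7KO and WT ranges overlapped. Foxp1, which acts in B cells, heart and brain, followed with 3420, 3338 and 3396 bp in S7KO and 3557, 3294 and 3333 bp in WT. Sox12, of the same subgroup (C) as Sox4 and Sox11, was the most even of the wide peaks, at 3316 to 3374 bp in S7KO and 3332 to 3353 bp in WT. Foxe1, needed for thyroid development, had widths of 2950 to 3527 bp, Foxq1 of 2585 to 3557 bp and Foxb1, a gene of the developing diencephalon, of 2708 to 2903 bp, again with overlap of the genotypes.

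By the same mean, the narrowest promoter peaks were those of Foxi1, a factor of the inner ear and of kidney intercalated cells, at 915, 1187 and 908 bp in S7KO and 1073, 830 and 944 bp in WT, and of Foxr1, at 951, 999 and 878 bp in S7KO and 1111, 1031 and 916 bp in WT. Foxh1, a partner of SMAD proteins in Nodal signalling, had widths of 1092 to 1293 bp, and Foxl1, a gene of the gut mesenchyme, of 997 to 1456 bp. Sox21 spanned 1216 to 1304 bp in 5 libraries and 3048 bp in S7KO replicate 4. Sox1, a neural progenitor gene, varied most, with 1983, 627 and 2323 bp in S7KO and 570, 252 and 788 bp in WT. At 40 members the widest and narrowest library differed by at most 1.5 times, and the median ratio over the 57 was 1.22. In the other 17 the ratio was larger, and WT replicate 2 was the narrowest library in 11 of these 17.

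Among the roles, the germ line list holds 10 members. All 10 had a promoter peak in all 6 libraries, with a median width of 2010 bp. Foxo3, a FOXO factor that keeps ovarian follicles dormant, had widths of 2644, 3074 and 2640 bp in S7KO and 3029, 2698 and 2604 bp in WT, and its peaks ranked at a mean of 3.23%, the strongest of any member. Foxc2, found in quiescent spermatogonial stem cells, had widths of 3034, 3033 and 2884 bp in S7KO and 2942, 1462 and 2727 bp in WT, so that WT replicate 2 alone was short. Sox3, an X-linked factor of undifferentiated spermatogonia, showed the same pattern, with 2221 to 2283 bp in S7KO and 2284, 1727 and 2221 bp in WT. Sox30, which acts in spermatids, had an even peak of 1550 to 1741 bp, Foxj2 of 1607 to 1765 bp and Foxj3 of 1711 to 1912 bp. The Sox30 peak began 595 to 727 bp from the 5′ end used here and covered it in no library.

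Genes of the somatic gonad also had promoter peaks in all 6 libraries, 6 of 6, with a median width of 2148 bp. Foxl2, a determinant of ovarian granulosa cells, had an even peak of 2713 to 2806 bp in S7KO and 2663 to 2774 bp in WT. Sox8, a relative of Sox9 in Sertoli cells, was narrowest in WT replicate 1 (1411 bp) and widest in S7KO replicate 4 (2059 bp), and Sox4 from 2028 to 3393 bp with the long form in S7KO replicate 4, WT replicate 1 and WT replicate 4.

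Members listed for endothelium, for neural tissue and neural crest and for endoderm carried promoter peaks as well. Endothelial cells are among the somatic cells that plating is meant to remove, and their part was not tested. The 3 endothelial genes (Sox7, Sox17, Sox18), the neural and neural crest genes (such as Sox1, Sox10, Sox11, Sox21 and Foxd3) and the 3 endoderm genes (Foxa1, Foxa2, Foxa3) all had a peak in all 6 libraries, with median widths of 1710, 1894 and 1991 bp. Their strength varied widely. Mean ranks were weak for Foxd3 (78.3%), Sox10 (76.0%), Foxa1 (74.2%), Sox1 (72.8%), Foxa2 (66.9%) and Sox7 (58.0%), intermediate for Sox17 (45.2%), and at or above the members' median strength for Sox11 (23.1%), Sox18 (20.6%), Sox21 (17.5%) and Foxa3 (12.0%). The 5 members of the cell cycle and widely used list (Foxm1, Foxk1, Foxk2, Foxn3, Foxo4) ranked from 7.14% for Foxk2 to 21.8% for Foxo4, and their median width was 1824 bp. Foxm1, a driver of genes of mitosis, had widths of 1525 to 1669 bp. A last list holds 6 genes of lineages taken to be absent from the testis cords, and roles in later germ cells were not considered for it. Of these, 4 (Foxe1, Foxe3, Foxi1, Foxj1) had a promoter peak in all 6 libraries, and Foxn1 and Foxp3 had none.

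Foxn1, the gene mutated in nude mice and needed in thymic epithelium, spans chr11:78357577-78386783 on the minus strand of mm10. Its nearest peak lay 7024, 7096 and 3813 bp from the 5′ end in S7KO and 7045, 7086 and 7045 bp in WT. The gene and its 10 kb flanks, which hold Unc119 as well, had 4 to 6 peaks per library. Foxp3, the lineage factor of regulatory T cells, spans chrX:7579676-7595243 on the plus strand, with its nearest peak 4486 to 4520 bp away in all 6 libraries and no peak in the gene itself. A second RefSeq start of Foxp3, 807 bp further in, also had no peak within 1 kb in any library. Foxr2 spans chrX:153114581-153132861 on the plus strand. A peak lay 3931 and 4273 bp from its 5′ end in S7KO replicates 1 and 2, at the internal start shown above, and the nearest peak was 15900 bp or more away in the other 4 libraries.

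**Figure D3:**
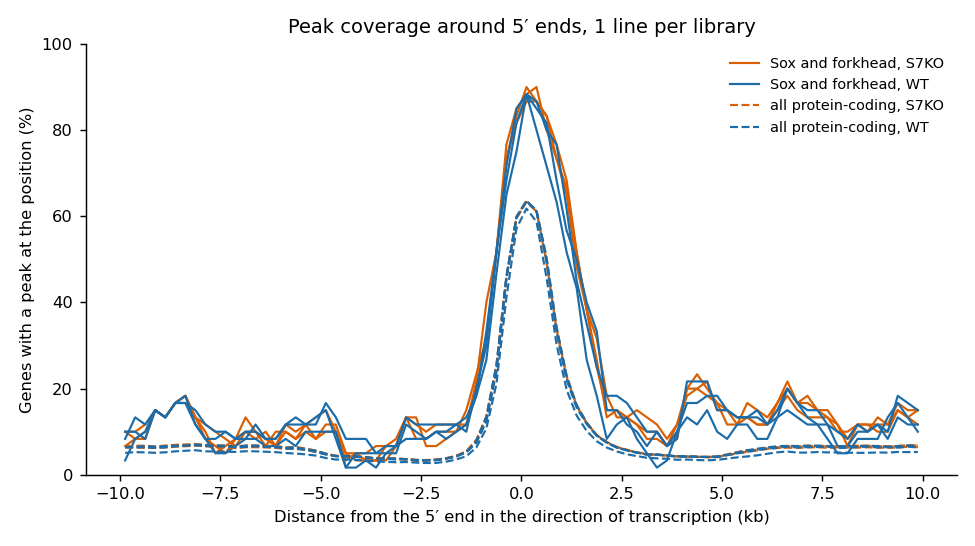
Share of genes with a peak at each position (vertical axis, percent) by distance from the 5′ end in the direction of transcription (horizontal axis, kb), for Sox and forkhead genes (solid) and all protein-coding genes (dashed), with 1 line per library, S7KO in orange and WT in blue. The members reach 86.7 to 90% at 125 bp past the 5′ end, against 61.8 to 63.6% for all genes, and the lines of the genotypes overlap.

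Coverage around the 5′ end reached further into the gene than upstream of it. At 1375 bp past the 5′ end, 43.3 to 51.7% of members had a peak in the 6 libraries, against 13.7 to 16.2% of all genes. At 1125 bp upstream the shares were 18.3 to 23.3% and 6.33 to 8.14%. The members' 5′ ends themselves were covered in all 6 libraries at 50 genes, against 59.7% of all genes.

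Member genes were short, with a median length of 4.8 kb, against 17.5 kb over all genes, so that a broad promoter peak could take up much of a gene. Of the 31 members of 5 kb or less, all had a promoter peak in all 6 libraries, and peaks covered a median of 55.9% of the gene. Of all 4759 genes of that length, 2033 had such a peak, and their median was 32.4%. At 19 of these 31 members peaks covered 50% or more of the gene. Foxs1 was covered from end to end in all 6 libraries, and Foxe1 to 95.7% on average. At Foxb2, Foxd4 and Foxe3 the means were 86.7%, 84.4% and 83.9%. Hox genes of that length with a promoter peak in all 6 libraries had a median of 55.1%, and such ribosomal protein genes 22.4%.

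Peaks over the whole gene and 10 kb on each side numbered a median of 4.17 per member, against 3.5 over all genes, and their density was 13.3 per 100 kb, against 7.76. Over Hox genes the density was 22.7 per 100 kb, and over ribosomal protein genes it was 13.3, as over members. Numbers rose with the length of the window. Sox5, a partner of Sox6 in cartilage, had the most, with 61, 66 and 70 peaks in S7KO and 68, 63 and 71 in WT over 974 kb. Foxn3, in 394 kb, had 43, 41 and 46 in S7KO and 40, 39 and 44 in WT. Foxp1, in 617 kb, varied more, with 27, 46 and 42 in S7KO and 31, 21 and 45 in WT. Sox6 had 27 to 28 in S7KO and 23 to 32 in WT, Foxo3 15 to 18 and 14 to 16, and Foxp2, a factor of brain circuits for vocal learning, 14 to 17 and 14 to 16. In each of these 6 genes the ranges of the genotypes overlapped. Foxo3, with 115 kb, held as many peaks as Foxp2 with 561 kb, and the densities were 13.9 and 2.74 per 100 kb. At the other end Foxe3 and Foxj1 had a lone peak in each library.

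**Figure D4:**
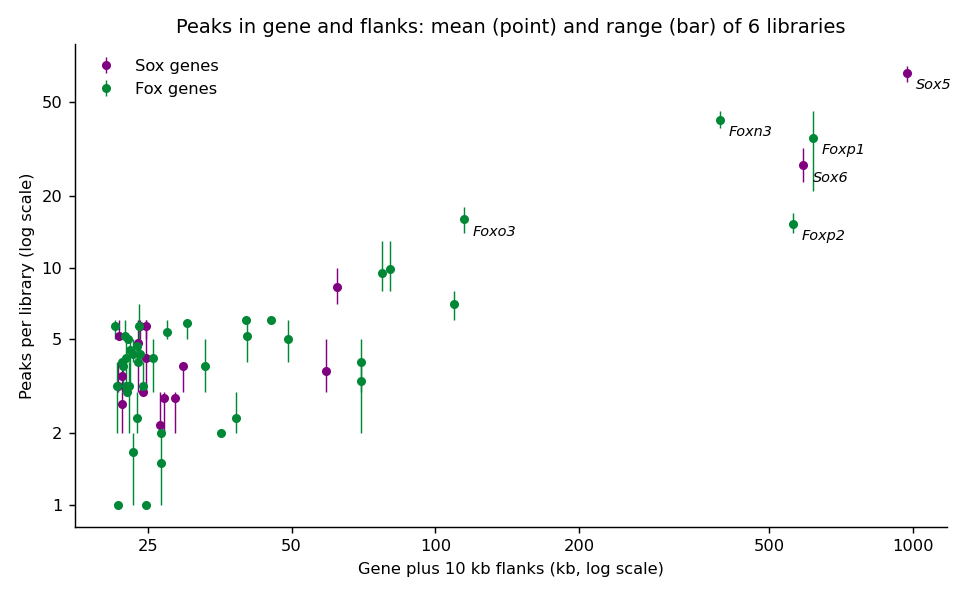
Peaks per library in 59 Sox (purple) and forkhead (green) genes plus 10 kb flanks (vertical axis, log scale), by the length of that window (horizontal axis, kb, log scale), with the mean of 6 libraries as a point and their range as a bar. Sox5 has a mean of 66.5 peaks, and Foxp1 has the longest bar among the named genes, from 21 to 46.

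Long members had further starts inside the gene, and peaks stood at some of them. Of the 6 RefSeq starts of Sox6, that nearest the 5′ end had a peak in all 6 libraries with a mean width of 1852 bp, and the next, 9729 bp in, had a wider peak of 3690 bp. The starts 45690, 194636 and 239167 bp in had no peak in any library, and that at 216066 bp had a peak of 1256 bp in all 6. All 3 starts of Foxp1 with a sequence had a peak in all 6 libraries, with mean widths of 3390, 810 and 1990 bp from the outermost to the innermost.

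When peaks of the 6 libraries were merged, the member windows held 510 regions. Of these 335 (65.7%) were called in all 6 libraries, against 57.1% over the genome. Regions in all 6 libraries made up 71 of 75 at the members' own promoters (94.7%) and 20 of 21 at promoters of other genes in the windows (95.2%), and fewer in gene bodies, 170 of 306 (55.6%), and flanks, 77 of 111 (69.4%). Sox5 held 78 gene body regions, 52 of them in all 6 libraries, whereas Foxp1 held 53, of which 18 were in all 6. Some windows overlapped, so that a peak in the overlap counts for both members. Foxc2 and Foxl1 are 8.79 kb apart and Foxd2 and Foxe3 15.5 kb apart. The lone peak of Foxe3 lay at its own promoter, beyond the Foxd2 window. The windows of 26 members also held another protein-coding gene.

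The comparison of S7KO with WT asks whether loss of SIRT7 altered accessibility at these genes. The number of members with a promoter peak was 57 in every library of both genotypes. The median promoter peak width over members was 2085, 1985 and 2086 bp in S7KO and 2000, 1770 and 2000 bp in WT, with means of 2052 ± 58.0 and 1923 ± 133 bp (SD, n = 3 each). The ranges overlapped, and WT replicate 2 was the lowest. Over all genes the means were 1437 ± 9.81 and 1400 ± 67.3 bp, with WT replicate 2 again the lowest. The mean number of peaks per member in gene and flanks was 7.30 ± 0.347 in S7KO and 6.98 ± 0.604 in WT, and over all genes 4.79 ± 0.234 and 4.54 ± 0.473. Each of these 4 differences was smaller than the SD of the WT libraries. By strength, the promoter peaks of members had a median rank of 24.6% (SD 2.04) over the S7KO libraries, against 25% (SD 4.05) over the WT libraries.

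For each gene the length covered by peaks within 3 kb of the 5′ end was compared with limma across 16379 genes. No member of the 57 tested passed at a Benjamini-Hochberg adjusted p of 0.05. Over all genes 4 (0.0244%) were called higher in S7KO and 2 (0.0122%) higher in WT. With the unadjusted p under 0.05 there was 1 member, higher in S7KO, against 3.12% of all genes higher in S7KO and 0.562% higher in WT. The median S7KO minus WT difference was 67.0 bp over members and 27.7 bp over all genes. Without WT replicate 2 these medians were 15.3 bp and 0 bp, and without WT replicate 1 they were 116 and 46.2 bp.

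The member with an unadjusted p under 0.05 was Sox18, a factor of endothelial and lymphatic vessels. Its covered length was 2245, 2185 and 2163 bp in S7KO and 2015, 1908 and 2024 bp in WT. Every S7KO value lay above the WT values. The difference of 215 bp (SE 53.1) had an adjusted p of 0.993 by limma. Foxc1, which acts in eye, heart and gonad, was the other member whose groups did not overlap, with 2787, 2813 and 2804 bp in S7KO and 2760, 1637 and 1942 bp in WT. The gap between its lowest S7KO and highest WT library was small beside the spread in WT, and the difference of 688 bp (SE 289) had an adjusted p of 0.993 by limma. Without WT replicate 2 it was 450.3 bp. These 2 of 60 members compare with 5.39% of all genes that were higher in S7KO with no overlap, and no member was higher in WT, against 1.16% of all genes.

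The next members by the size of their limma statistic overlapped between genotypes and had an adjusted p of 0.993 by limma. Sox1 covered 1983, 1190 and 2323 bp in S7KO and 1178, 521 and 1449 bp in WT. Its difference of 783 bp was 518.5 bp without WT replicate 2 and 1104 bp without S7KO replicate 2. Sox17, an endoderm and endothelial factor, covered 2022, 1718 and 1639 bp in S7KO and 1651, 1487 and 1509 bp in WT, and Foxl1 2988, 2879 and 2636 bp in S7KO and 2756, 2365 and 2564 bp in WT. The Sox17 difference of 244 bp was 129.5 bp without S7KO replicate 1, and the Foxl1 difference of 273 bp was 174 bp without WT replicate 2. In the other direction Foxn2 covered 1985, 1985 and 1906 bp in S7KO and 1947, 2306 and 2057 bp in WT, a difference of −145 bp that was −43.3 bp without WT replicate 2. Foxr1, Foxn4 and Foxk1 had S7KO minus WT differences of −76.7, −49.7 and −68.3 bp. With a library left out, Foxr1 ranged from −128 bp (without WT replicate 4) to −30.8 bp (without WT replicate 1), and Foxn4 from −69.0 bp (without S7KO replicate 4) to −16.0 bp (without S7KO replicate 2).

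**Figure D5:**
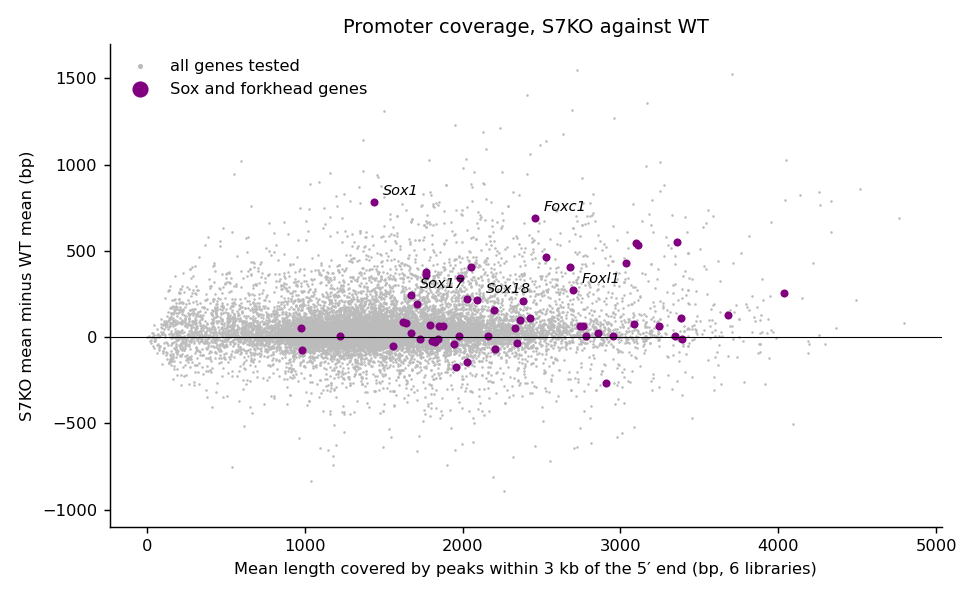
S7KO mean minus WT mean of the length covered by peaks within 3 kb of the 5′ end (vertical axis, bp), by the mean over 6 libraries (horizontal axis, bp), for 16379 genes tested (grey) and 56 of the 57 Sox and forkhead genes tested (purple). Sox1 and Foxc1 lie highest among the members, at 783 and 688 bp, within the cloud of all genes, and no member passed the test.

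Over the gene and its 10 kb flanks, limma called none of 18249 genes at a Benjamini-Hochberg adjusted p of 0.05 (0.0% in each direction). At an unadjusted p under 0.05, 644 genes (3.53%) were higher in S7KO and 32 (0.175%) higher in WT, and 2 of the 60 members were, both higher in S7KO. Foxl1 covered 4314, 3896 and 4699 bp in S7KO and 3420, 2627 and 3625 bp in WT, a difference of 1079 bp (SE 351, adjusted p = 0.979 by limma). Sox7 covered 4937, 4864 and 5285 bp in S7KO and 4273, 3464 and 4448 bp in WT, a difference of 967 bp (SE 337, adjusted p = 0.979 by limma). Both sets of values separated the genotypes, and both genes were lowest in WT replicate 2, without which the differences were 780.5 and 668 bp. The Foxl1 difference was 136 bp without the flanks, and the Sox7 difference was 136 bp with equal numbers of peaks per library. Sox3 covered 3919, 4130 and 3645 bp in S7KO and 3842, 2205 and 2794 bp in WT, with overlap, and its difference of 951 bp was 580 bp without WT replicate 2. Sox4 and Foxp3 had S7KO minus WT differences of −443 and −189 bp, with overlap in each. Without WT replicate 1 these were −224 and −0.167 bp, and without WT replicate 2 they were −784 and −342 bp. Sox4 was also −263 bp without S7KO replicate 2.

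Groups did not overlap over gene and flanks at 5 members, all higher in S7KO (Foxa3, Foxh1, Foxl1, Sox7, Sox11), against 6.35% of all genes, and at no member higher in WT, against 0.508%. The median difference was 382 bp over members and 200 bp over all genes, and without WT replicate 2 these were 48.0 and 10 bp. The number of peaks in gene and flanks separated the genotypes at no member, against 1.19% of all genes higher in S7KO and 0.196% higher in WT. Genotype-specific regions, called in every S7KO and no WT library or the reverse, were in no member window, against 1.98% of all genes for S7KO and 0.429% for WT. At promoters, 0.0326% of all genes and no member had a peak within 1 kb in every S7KO and no WT library.

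Other genes of the pathways were also without calls. Of 7 sequence-specific HMG-box relatives (such as Lef1 and Tcf7), 7 had a promoter peak in all 6 libraries, with a median width of 2563 bp, and none was called by limma at promoters, nor passed at an unadjusted p under 0.05. Of 13 kinases, receptors and enzymes that act on FOXO factors, 11 had such a peak and none was called. By limma, 2 of the 13 had an unadjusted p under 0.05, Sgk3 with an S7KO minus WT difference of 346 bp and Insr with −608 bp, against 3.12% of all genes higher in S7KO and 0.562% higher in WT.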

How the data were processed

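ATAC-seq peak lists of 3 S7KO and 3 WT libraries were used. Per the labels and the study's methods, the authors trimmed reads (Trim Galore 0.6.6) and aligned them to mm10 (Bowtie2 2.4.4.1). They kept unique, non-duplicate, non-mitochondrial fragments, corrected for the Tn5 insertion and dropped fragments outside a set size range. Broad peaks were then called per library with MACS2 2.2.5 at a set broad cutoff. The deposited files give peak positions, a score, a fold enrichment (a ratio) and −log10 p and q values. Peak coordinates exceed those of GRCm39, which leaves mm10. Genes, 5′ ends and promoter sequences came from RefSeq GRCm38.p6. Strand came from its promoter table for 17492 genes and from GENCODE for 3948. Genotypes were compared with limma 3.58.1 (R 4.3.3; variance trend, no covariate) on covered bp of genes with a peak in at least 3 of 6 libraries, with Benjamini-Hochberg adjustment over all genes tested at 0.05. The script was tested on simulated data. The read-count test of the study needs reads, which were not used here.

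Members and lists were chosen with earlier results of these data known. Genes named were the 6 widest, 6 narrowest and 6 with the most peaks, the 5 (promoters) and 3 (gene and flanks) with the largest limma statistic in each direction, and the role lists, of which 1 gene is not reported here. Deviations of same-numbered libraries correlated at 0.122, −0.00511 and 0.124 for replicates 1, 2 and 4 at promoters and at 0.103, −0.184 and 0.457 over gene and flanks, so the numbers were not treated as pairs. Alternatives were other peak thresholds, windows, filters, scales and covariates, and leaving out each library.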

Additional observations from a re-analysis of the deposited data

How the results depend on the processing

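Peak lists hold no read counts, so accessibility was compared by covered length and peak rank. No member was called in any of 28 alternative fits. Of 195 recomputed differences of the genes named from the fits, 193 kept their direction and call. These genes were picked by their limma statistic in the same libraries and none was called, so this count is no separate support. The reversals were Foxk1 at promoters without WT replicate 1 (3.5 bp) and Sox7 over gene and flanks with peaks of −log10 q of 3 or more (−118 bp). With a library left out, Foxk1 ranged from −120 to 3.5 bp. The cause was not tested. Of the other 108 recomputed values, 66 stayed within 1 SD between replicates or, for counts, within 1.5 times. Where that SD or the main count was 0, only an identical value passed. The difference in promoter width was 52.0 bp (without WT replicate 2) to 167 bp. That in peaks per member was 0.0417 (without WT replicate 2) to 0.642 with a library left out, and turned to −0.128 with equal peak numbers and −0.05 with replicates 1 and 4 only. The S7KO minus WT difference in members with a peak, 0 in the report, became 1.67 (1 kb) and 1 (3 kb) with −log10 q of 3 or more, 1 and 0.667 with equal peak numbers, and 0.667 where the peak had to cover the 5′ end. Members not overlapping at promoters numbered 4 to 15 higher in S7KO and 0 to 2 higher in WT with a library left out (4 in S7KO without WT replicate 2, 15 without WT replicate 1), 8 and 6 with replicates 1 and 4 only, and 5 and 1 with a 1 kb window. Smaller groups separate more often by construction. Members' genotype-specific regions numbered 0 to 8 for S7KO and 0 to 3 for WT with a library left out, 3 and 3 with replicates 1 and 4 only, and for S7KO 2 with −log10 q of 3 or more and 1 with equal peak numbers. Shares over all genes were not computed for these alternative counts of non-overlapping members and of specific regions. The counts therefore describe no trait of the members. Genes called at promoters, 6 in the report, numbered 0 to 22 with a library left out, 0 with replicates 1 and 4 only, 1 with peak number as a covariate and 11 with a 1 kb window. Over gene and flanks, 0 in the report, 4 were called without the filter and 3 without flanks. What same-numbered libraries shared beyond a number is not known here. With the replicate number as a block, 0 genes were called at promoters and 0 over gene and flanks. At an unadjusted p under 0.05 by limma, 4 members were then higher in S7KO at promoters, against 499 of 16379 genes. In WT 0 members were higher, against 92 genes. The SE of the Sox1 difference at promoters was 56.7 bp with the block and 371 bp without it.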
